A study of Mus musculus with 15 samples.

Results

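The nuclear-encoded subunits of the mitochondrial respiratory chain were followed in macrophages sorted from mouse ear skin. Members were chosen by symbol alone: rows that begin with Ndufa, Ndufb, Ndufc, Ndufs or Ndufv and a digit, the rows Sdha to Sdhd, and rows that begin with Uqcr, Cox4i, Cox5, Cox6, Cox7, Cox8 or Atp5, without assembly factors (Ndufaf), rows ending in -ps and numbered second entries. This gave 87 of the 42454 rows: 38 for complex I, 4 for complex II, 8 for complex III, 19 for complex IV, 17 for complex V and Ndufa4l2, a paralogue that was put with no complex. Complexes were otherwise assigned by the start of the symbol, except that Ndufa4 was put with complex IV. Of the 87, 70 had a mean normalized count of 100 or more over the 15 libraries and were tested, namely 33, 4, 7, 12 and 14 members of complexes I to V. The other 17 are accounted for below. The 87 rows held 0.582% of all reads.

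The respiratory chain passes electrons from NADH (complex I, NADH dehydrogenase) and succinate (complex II, succinate dehydrogenase) through complex III (the cytochrome bc1 complex) to oxygen at complex IV (cytochrome c oxidase). Complexes I, III and IV pump protons, and complex V (ATP synthase) uses the resulting gradient to make ATP. Most subunits are encoded in the nucleus and imported, and the core membrane subunits of every complex but complex II are encoded in mitochondrial DNA. In macrophages the balance between glycolysis and oxidative phosphorylation is known to shift with activation, and succinate dehydrogenase, which also belongs to the citric acid cycle, is a known control point of inflammatory macrophages.

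All mice carried CX3CR1-creERT2/gfp and R26-tdT/+, that is, GFP and a tamoxifen-inducible Cre at the gene for the chemokine receptor CX3CR1 and a Cre-dependent tdTomato reporter. They received tamoxifen, and 3 weeks later the left ear was punched; skin of both ears was taken 10 days after the punch. CD11b+ CD64+ Lin- cells were sorted into 5 groups of 3 libraries: interstitial macrophages, called IM in the unpunched and injIM in the punched ear, resident nerve-associated macrophages of the unpunched ear (sNAM) and of the punched ear (injsNAM), and recruited nerve-associated macrophages of the punched ear (recsNAM). Groups follow the sample titles. A reporter field in the labels tracks punching instead and gives injIM as GFP+/Tomato+ and sNAM as GFP-/Tomato-, against the sorting gates that the protocol describes. All libraries came from 3 mice and the labels do not say which mouse gave which library, so p-values measure the spread between libraries that share animals. The labels give no age or sex.

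Depth was 20.4 to 23.8 M reads (M, 1000000) per library in IM, injIM and recsNAM, 16.9 to 19.5 M in injsNAM and 5.64 to 18.6 M in sNAM. The resident libraries stood apart: 8581 to 12302 genes had a read in sNAM and injsNAM, against 13794 to 16416 in the other groups. In sNAM replicate 2, 25.8% of the tested genes had no read, among them 2 members. The 12 macrophage markers were detected in every group, and their summed level ranged from 26809 to 41284 CPM (reads scaled to 1 M per library) over all libraries. Every member is reported in bulk RNA, where fewer cells of a type and less RNA per cell cannot be told apart.

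Promoter sequences are shown first, because many members are known targets of a few shared factors and because 3 members whose values stand out below can be set beside 3 that hold the best-known shared motif. RefSeq start sites on GRCm38.p6 matched 69 of the 87 members, with 74 windows from 250 bases before to 50 bases after the start. The site of nuclear respiratory factor (NRF1), a palindrome whose letters are the capitals in the window of Atp5k, was in 5 of the 74 windows (6.76%), against 2.2% of 8960 windows of tested genes and 0.971% of all 32851 windows. These 5 windows belonged to Atp5g2, Atp5k, Cox6a1, Ndufa11 and Uqcrc1. On either strand, AAGATGGC (YY1) was in 13.5% of members' windows, 5.02% of those of tested genes and 2.75% of all. The letters TCAAGGTCA (estrogen-related receptor) were in 2.7%, 0.29% and 0.423%, and CCGGAAGT (ETS family, which includes GABPA) in 6.76%, 8.74% and 3.89%. The SP1 motif GGGCGG was in 39.2% of members' windows, 63.9% of those of tested genes and 35.7% of all. For the TATA box, TATAAA, the same shares were 12.2%, 7.21% and 13.6%. These shares describe the windows and were not tested, and overlapping motifs were counted separately. The 250 bases before the start are given for 3 members with the NRF1 letters and for the 3 members whose values are described in most detail, 5′ to 3′ on the strand of the gene, with matched motifs in capitals.
Cox6a1, chr5:115348959-115349208, minus strand: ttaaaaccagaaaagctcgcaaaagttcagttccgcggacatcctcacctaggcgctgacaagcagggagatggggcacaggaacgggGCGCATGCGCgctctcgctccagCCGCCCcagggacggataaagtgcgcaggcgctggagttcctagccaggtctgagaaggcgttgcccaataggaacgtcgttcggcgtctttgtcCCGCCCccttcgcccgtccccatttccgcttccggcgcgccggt
Atp5k, chr5:108434400-108434649, minus strand: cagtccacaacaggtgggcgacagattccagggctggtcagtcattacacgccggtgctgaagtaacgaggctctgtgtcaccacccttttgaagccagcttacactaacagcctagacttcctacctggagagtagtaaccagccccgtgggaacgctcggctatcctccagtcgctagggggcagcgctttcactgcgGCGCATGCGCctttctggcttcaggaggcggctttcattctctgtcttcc
Ndufa11, chr17:56717512-56717761, plus strand: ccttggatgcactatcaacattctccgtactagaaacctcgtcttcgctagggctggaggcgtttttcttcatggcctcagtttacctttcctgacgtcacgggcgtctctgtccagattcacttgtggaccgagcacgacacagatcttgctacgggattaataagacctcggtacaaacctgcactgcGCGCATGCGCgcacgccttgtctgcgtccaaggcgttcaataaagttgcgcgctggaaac
Sdha, chr13:74350241-74350490, minus strand: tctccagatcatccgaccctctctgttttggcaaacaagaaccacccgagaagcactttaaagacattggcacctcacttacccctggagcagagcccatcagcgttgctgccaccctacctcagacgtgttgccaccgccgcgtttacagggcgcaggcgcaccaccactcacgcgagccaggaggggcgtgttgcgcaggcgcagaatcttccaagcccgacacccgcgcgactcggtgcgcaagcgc
Atp5md, chr19:47090648-47090897, minus strand: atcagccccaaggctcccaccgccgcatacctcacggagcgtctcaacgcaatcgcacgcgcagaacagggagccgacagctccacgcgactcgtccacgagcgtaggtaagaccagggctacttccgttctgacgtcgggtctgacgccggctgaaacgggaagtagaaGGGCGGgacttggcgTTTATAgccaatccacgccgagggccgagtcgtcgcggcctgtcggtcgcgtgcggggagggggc
Cox7a2l, chr17:83514334-83514583, minus strand: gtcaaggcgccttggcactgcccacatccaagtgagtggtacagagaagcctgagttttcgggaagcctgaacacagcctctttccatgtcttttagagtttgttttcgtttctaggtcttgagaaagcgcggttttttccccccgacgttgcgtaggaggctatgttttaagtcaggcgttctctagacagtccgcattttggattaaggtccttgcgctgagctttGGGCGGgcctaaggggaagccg
The NRF1 letters began 162 bases before the start in Cox6a1, 60 in Ndufa11 and 50 in Atp5k. The window of Sdha held none of the 6 motifs, that of Atp5md the SP1 and TATA letters, and that of Cox7a2l the SP1 letters.

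Levels were compared between genes per kilobase (kb) of exon, as normalized counts averaged over the 15 libraries. The length was that of all annotated exons of a gene, merged over its transcripts. A gene with long exons in any annotated transcript thus has a lower value per kb, whichever transcripts the cells made. Atp5b, the catalytic beta subunit of ATP synthase, had the highest level of all tested members with 8242 per kb, and Ndufb2, an accessory subunit of complex I, the lowest with 83 per kb. Ndufb2 has 4375 bases of merged exon and a mean normalized count of 363. By count alone the lowest tested member was Ndufb4 with 111.1. The median level ran from 666.7 per kb for complex I through 1221 for complex III, 1337 for complex II and 1405 for complex V to 2182.5 for complex IV. Within complex IV, Cox4i1, which forms the regulatory subunit of cytochrome c oxidase, was highest with 5584 per kb, followed by Cox6a1 with 5028, Cox8a with 4752 and Cox6b1 with 4612. Complex I was led by Ndufa1 with 2126 per kb, complex II by Sdhb with 2014, and complex III by Uqcrb with 2504, although 43.4% of the 50-base stretches of Uqcrb also occur in transcripts of other genes. The lowest tested members of the other complexes were Sdhc with 423.9, Uqcrq with 507.1, Cox7a2l with 331.9 and Atp5g1 with 150.8 per kb. Without length, the median normalized count of a tested member was 944.4, above 62.2% of all tested genes, whose median was 633.3.

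The tissue-restricted isoforms of cytochrome c oxidase all lay below the filter, from no read at all up to a mean normalized count of 47.7 for Cox6b2. Per kb, Cox4i2, the isoform known from lung and low oxygen, made up 0.304% of the Cox4i1 and Cox4i2 total. The isoforms known from heart and skeletal muscle made up 0.783% (Cox6a2 with Cox6a1), 1.74% (Cox7a1 with Cox7a2) and 0.046% (Cox8b with Cox8a). Cox6b2, known from testis, made up 1.38% of its pair, and no read was listed for Cox8c or Cox7b2 in any library, which allows up to 0.00676% of the reads of Cox8a and 0.0183% of those of Cox7b (3 reads, counting error only). Ndufa4l2, known to be induced by low oxygen, had 59 reads in all, in 5 of the 15 libraries. Summed skeletal muscle markers stood at 0.623 to 66.9 CPM, with the highest value in sNAM. Of the 3 genes that encode the c ring of ATP synthase, Atp5g3 was highest with 3593 per kb, against 150.8 for Atp5g1 and 132.5 for Atp5g2. Their merged exon lengths differ, with 724, 4912 and 731 bases in this order. The mean normalized counts without length were 2602, 741 and 96.9.

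Several subunits could not be followed. Atp5a1, which encodes the catalytic alpha subunit of ATP synthase, was listed at 0 in every library, and Uqcrc1 (a core subunit of complex III), Ndufs3 (a core subunit of complex I) and Ndufa7 had 1, 8 and 1 reads over the 15 libraries. These 4 are the members whose symbol the table lists again with a number. Of the 1738 symbols with such a second entry, 76.2% had a mean below 1, against 57.3% of the 38370 other symbols. The second entries were also at or near 0. Partner subunits of complexes V and III were abundant, with means of 15792 for Atp5b and 1067 for Uqcrc2, so the low rows are given as listed and not as low expression. Sequence shared with other genes was low for Uqcrc1 (0% of its 50-base stretches), Ndufa7 (1.88%) and Atp5a1 (2.76%) and higher for Ndufs3 (39.7%). Atp5l, a membrane subunit of ATP synthase, had a mean of 51.2 and shared 84.8%, and Atp5g2 had a mean of 96.9 and shared 38.3%; both fell below the filter and are uncertain. The remaining untested rows were the 7 complex IV isoforms above, Ndufa4l2, and Ndufa11b, Ndufb4b and Ndufb4c, for which 7, 105 and 7 reads were listed.

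**Figure D1:**
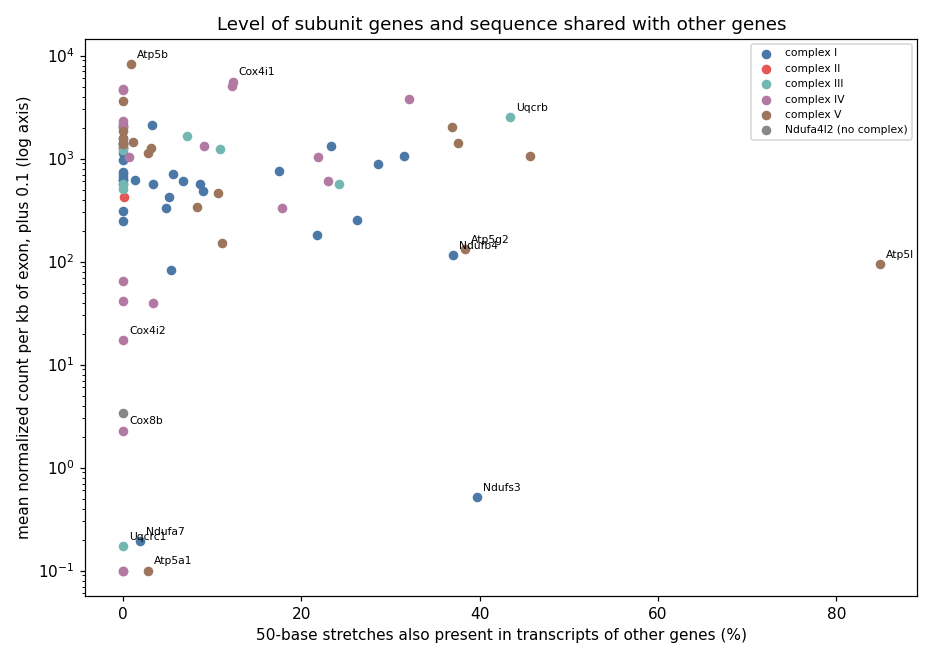
Mean level over the 15 libraries per kb of exon (log axis, 0.1 added) against the share of a gene's 50-base stretches that also occur in transcripts of other genes, for members with a gene model (1 is not drawn), coloured by complex. Atp5a1, Uqcrc1 and Ndufa7 lie at the bottom left, with little shared sequence and almost no reads, while Atp5l lies alone at the right with 84.8% shared.

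No tested subunit passed the test between interstitial macrophages of the punched and the unpunched ear. By limma, 0 of 70 members were called at an adjusted p under 0.05, against 708 of 8656 tested genes (8.18%) in the same fit. The other tools run on the recovered reads, edgeR and DESeq2, called 0 members as well, and 4 members had an unadjusted p under 0.05 by limma, against 20% of all tested genes. The 95% interval lay within 2-fold in either direction for 70 of 70 members, and for 88.3% of all tested genes. These intervals rest on the group weights of the fit: with 1 spread pooled over the groups they lay within 2-fold for 44 of 70 members and 27.5% of all tested genes. Log2 differences ranged from -0.11 to 0.54 among members, with a median of 0.06 beside 0.03 over all tested genes. Medians were 0.12 for complex I, 0.18 for complex II, 0.13 for complex III, -0.01 for complex IV and 0.05 for complex V.

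The 4 members below an unadjusted p of 0.05 were all higher in value in injIM. Cox7a2l, which encodes a protein that helps complexes III and IV join into supercomplexes, had normalized counts of 307, 267 and 323 in IM and 401, 450 and 604 in injIM. The groups did not overlap, and the log2 difference of 0.54 (SE 0.18) had a limma adjusted p of 0.0779. Cox7a2l passed in 2 of 24 alternative settings, limma on total-count scaling (adjusted p = 0.0473) and limma with replicate number as a block (adjusted p = 0.0431). The labels do not tie replicate numbers to mice. Ndufa10, an accessory subunit of complex I, had a log2 difference of 0.45 (limma adjusted p = 0.169), with counts of 776, 997 and 851 in IM and 1019, 1110 and 1615 in injIM. Atp5g1 followed with 0.38 (limma adjusted p = 0.191) and Sdhd, a membrane anchor of complex II, with 0.33 (limma adjusted p = 0.228). Part of the Cox7a2l sequence (17.8% of its 50-base stretches) is shared with other genes; its promoter is printed above. In 6 of 70 members (these 4, Ndufb6 and Ndufs1) every injIM library lay above every IM library and in 0 every one lay below, against 13.5% and 11.4% of all tested genes. The catalytic subunits had small differences: 0.08 for Sdha, -0.04 for Atp5b, 0.27 for Ndufv1, which binds NADH, and 0.17 for Uqcrfs1, the Rieske iron-sulfur protein. The most negative value in each complex belonged to Ndufa5 (-0.06), Sdhc (-0.11), Uqcrb (-0.09), Cox7a2 (-0.10) and Atp5md (-0.08).

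**Figure D2:**
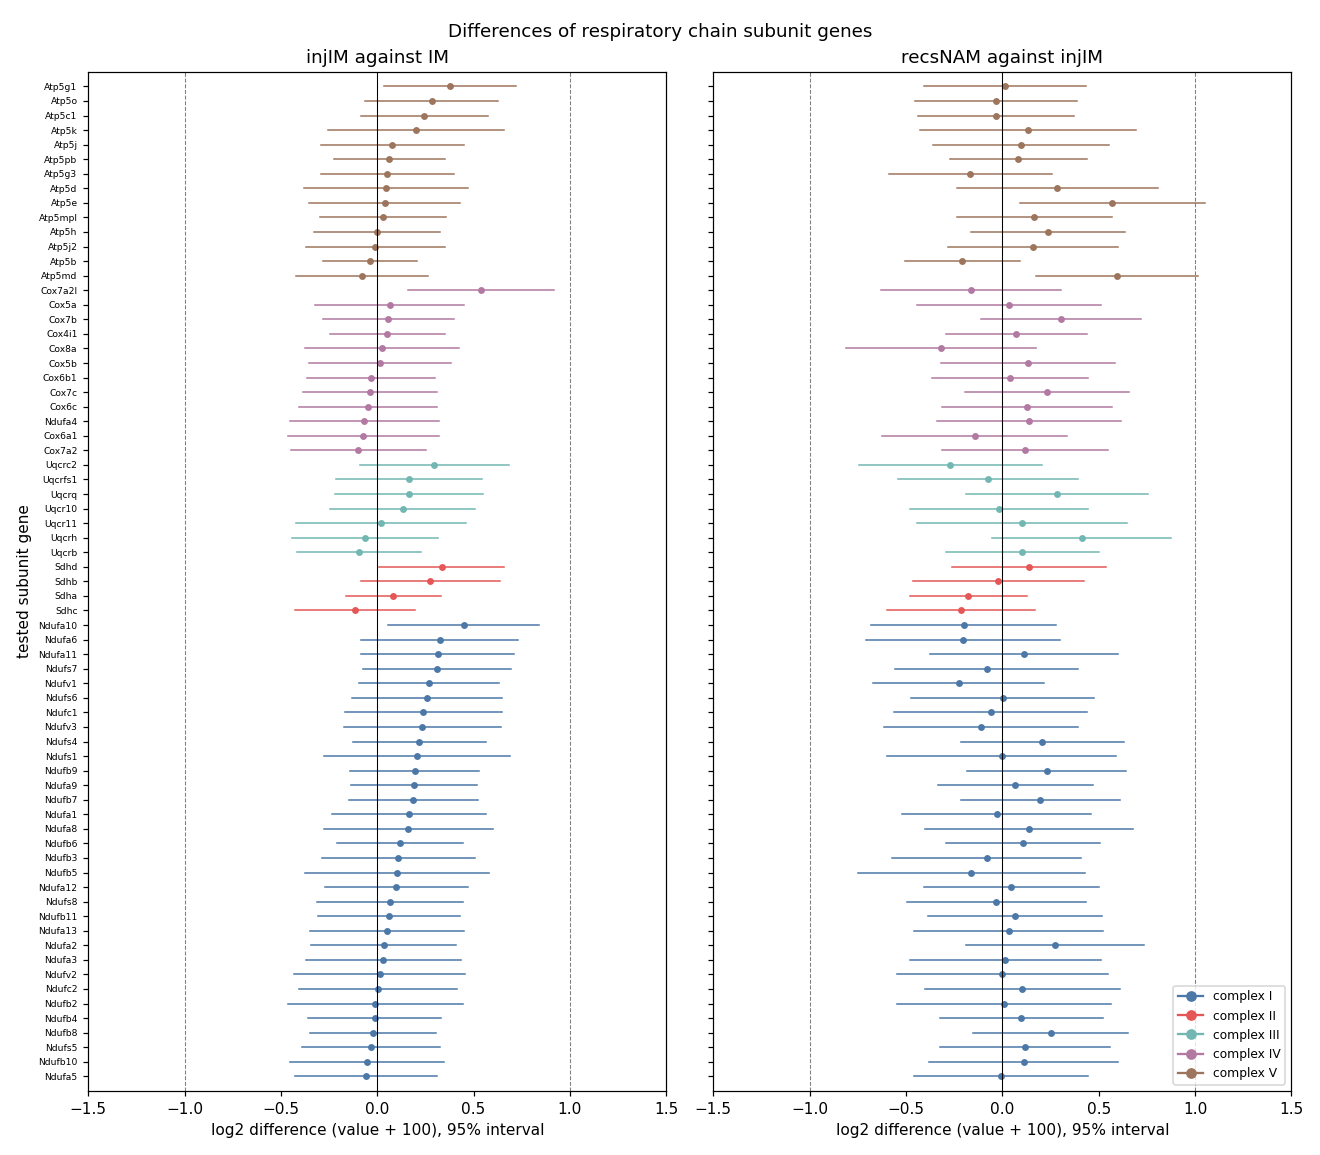
Log2 difference of 69 of the 70 tested members, on the log2(value + 100) scale with its 95% interval, for injIM against IM (left) and recsNAM against injIM (right), coloured by complex; dashed lines mark 2-fold. All intervals drawn on the left, and all on the right but those of Atp5e and Atp5md, lie between the dashed lines.

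Some other energy genes passed the limma test in this comparison. Of the 15 tested glycolysis genes, 4 rose and 0 fell, beside 4.15% and 4.03% of all tested genes: Slc16a3 (a lactate exporter, log2 difference 1.28), Eno1 (enolase, 0.72), Pkm (pyruvate kinase, 0.64) and Pgam1 (phosphoglycerate mutase, 0.56), with limma adjusted p-values of 0.00113, 0.00503, 0.000542 and 0.0246. Hif1a, the oxygen-sensitive transcription factor, rose by 0.73 (limma adjusted p = 0.00737), and Myc, a factor that drives growth genes, fell by 0.78 on the log2 scale (limma adjusted p = 0.0293). These were 1 riser and 1 faller of 10 tested regulators. The 6 calls were limma's alone: edgeR, DESeq2 and limma with 1 pooled spread called 0 of the 6, and without a filter 2 (Pkm and Slc16a3) passed. Leaving out each library in turn, 3 of the 6 (Slc16a3, Eno1 and Pkm) passed every time. Among the regulators tied to respiratory genes, Esrra had a log2 difference of 0.54 (limma adjusted p = 0.0722), Nrf1 -0.40 (0.288), Gabpa 0.28 (0.554) and Tfam, which maintains mitochondrial DNA, -0.10 (0.866). Ppargc1a and Ppargc1b, the known coactivators of mitochondrial biogenesis, lay below the filter, Ppargc1a with group means of 0.282 in IM and 0.253 in injIM. None of 16 tested citric acid cycle and pyruvate dehydrogenase genes, 32 assembly factors, 69 mitochondrial ribosomal protein genes or 4 chain genes outside the name rule (Cyc1, Cycs, Ndufab1, Atpif1) was called, and 2, 4, 7 and 0 of them had an unadjusted p under 0.05. Whether glycolysis genes and subunits differed from each other was not tested. Marker sums moved with the same comparison: the sum of 9 mast cell markers was 554 to 743 CPM in IM and 258 to 272 in injIM, with 6 of 7 tested markers called lower by limma. The sum of 11 dendritic cell markers was 269 to 627 and 105 to 262 CPM (3 of 8 tested markers called lower), and that of 9 T and NK cell markers 62.3 to 94.8 and 175 to 234 CPM. Of the 4 tested T and NK cell markers, only 1 had a difference above 0. It was called higher, and another 1 was lower in every injIM library. The sum of the 12 macrophage markers was 33557 to 34900 and 28126 to 31751 CPM (4 called lower and 1 higher). The part of these cells in the values of the subunits or of the energy genes was not tested.

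The subunits shifted together between libraries of 1 group. In injIM replicate 3 the members' median deviation from the group mean was 0.34 on the log2 scale, against a median difference of 0.06 between injIM and IM. The summed normalized count of the 70 members was 91354 and 83571 in injIM replicates 1 and 2 and 128516 in replicate 3, and 94583, 88921 and 100113 in IM. In injIM replicate 3, 69 of 70 members had their highest value of the group, against 35.2% of all genes of the same level range and 100% of the 73 tested cytosolic ribosomal protein genes. In injsNAM replicate 1, 60 of 70 members had the lowest value of the group, against 31.8% of genes of the same level range and 90.4% of ribosomal protein genes. The spread showed it too: the median SD of a member within injIM was 0.31 on the log2 scale, against 0.20 for genes of the same level range. In the other groups members varied no more than such genes, with 0.15 against 0.18 in IM, 0.24 against 0.27 in recsNAM, 0.47 against 0.58 in injsNAM and 0.47 against 0.85 in sNAM.

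The sums of all 5 complexes took part in this shift. In injIM replicate 3 the sums were 35098 for complex I, 12840 for complex II, 7909 for complex III, 29131 for complex IV and 43538 for complex V, each the highest of the 3 libraries. In injsNAM replicate 1 they were 17134, 8045, 4494, 13731 and 26278, each the lowest. Complex II spread least within injsNAM, with 8045, 8635 and 8193, while complex IV ran from 13731 to 26119. Transcript length moved with the shift: 34 of the 70 members have under 1 kb of exon, against 247 of 8274 other tested genes, and the median lengths are 1011 and 3445 bases. Of those 247 short genes, which hold no member and no ribosomal protein gene, 80.6% were highest in injIM replicate 3, against 53.7% of genes of 1 to 3 kb and 21.5% of longer ones. Of the same short genes, 70% were highest in recsNAM replicate 3, where 52 of 70 members were highest. The part of transcript length in the members' shift was not tested.

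Leaving out injIM replicate 3 turned the members' median difference between injIM and IM from 0.06 to -0.07, still with 0 called, and leaving out each of the 15 libraries in turn gave medians from -0.07 to 0.22.

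**Figure D3:**
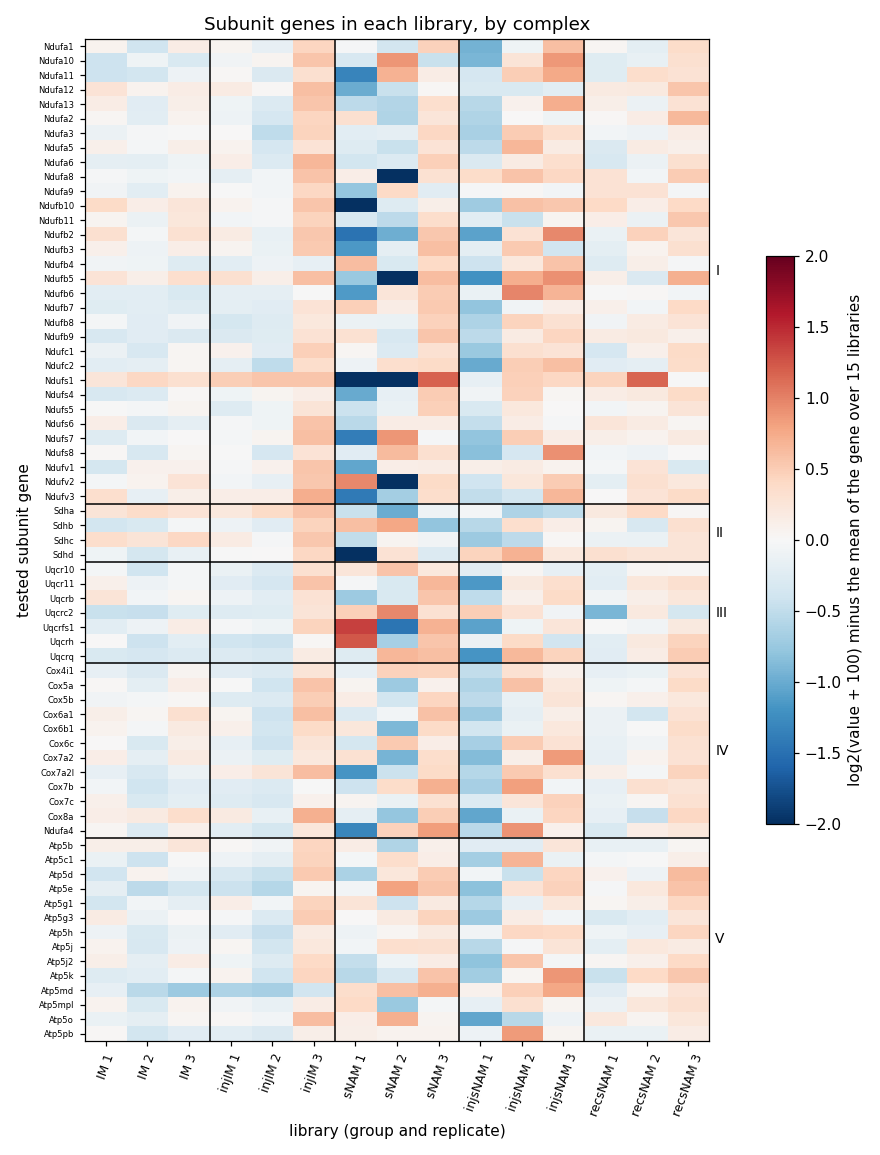
Each row is 1 of 69 of the 70 tested members and each column a library; colour gives log2(value + 100) minus the member's mean over the 15 libraries, and values past the ends of the scale take the end colour. The column of injIM replicate 3 is red in nearly every row, that of injsNAM replicate 1 mostly blue, and the sNAM columns are the most uneven.

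**Figure D4:**
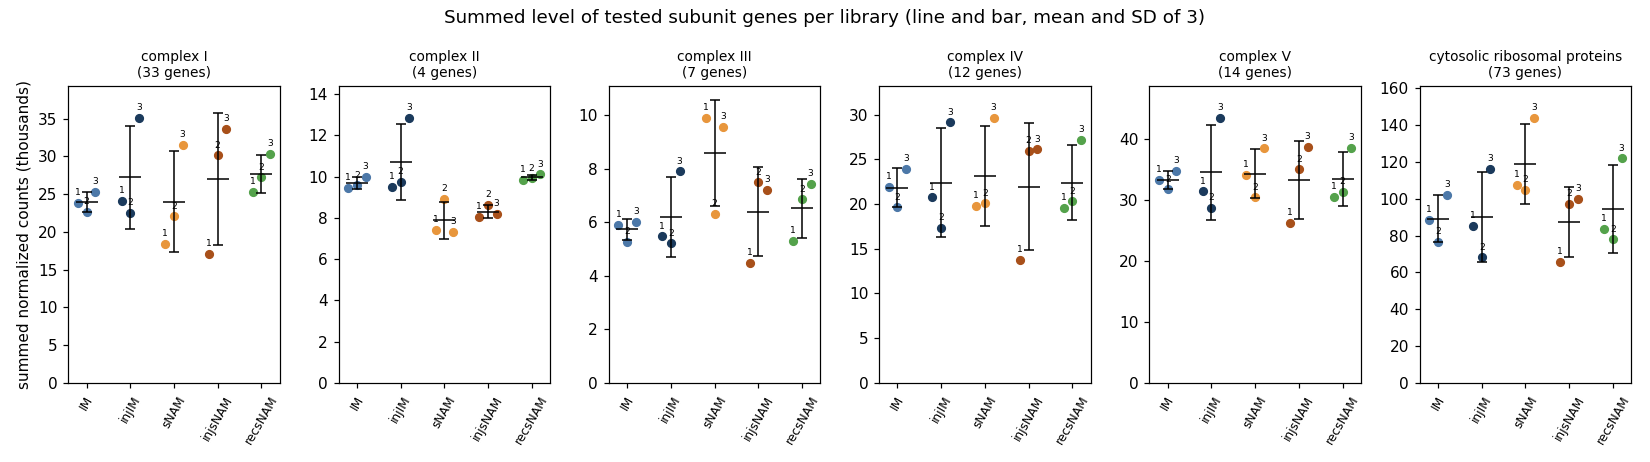
Summed normalized counts (in units of 1000, axis from 0) of the tested members of each complex, and of 73 cytosolic ribosomal protein genes, in each library; digits give the replicate, lines and bars the mean and SD of 3. Replicate 3 of injIM stands above its group in all panels, and on this scaling the complex II sums of sNAM and injsNAM lie below those of the other groups. The complex II sums include Sdha, which was described for this same arrangement.

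No subunit passed the test between resident nerve-associated and interstitial macrophages of the unpunched ear either. For sNAM against IM, limma called 0 of 70 members, against 1.05% of all tested genes, and 2 members had an unadjusted p under 0.05, against 15% of all tested genes. edgeR called 0 members, while DESeq2 called 3 of the 70 (Sdha lower, Atp5md and Uqcrc2 higher) and Cox7a1, which lies below the filter. Over all genes DESeq2 also called many more than limma here, with the counts in the last section. Its 3 calls are therefore not read as a result about the members. The 95% interval lay within 2-fold for 0 of 70 members, and for 29 with 1 pooled spread, so changes of this size were not detectable in these libraries for most subunits. The median log2 difference was 0.06 for members and -0.26 for all tested genes, and under TMM scaling it was -0.01 and -0.32, so the sign for members depends on the scaling. By complex the medians were -0.04 (I), -0.49 (II), 0.50 (III), -0.01 (IV) and 0.21 (V).

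Sdha, the flavoprotein that oxidises succinate, stood lower in every resident library than in every interstitial one. Its normalized counts were 4723, 5120 and 4808 in IM and 2854, 1936 and 3669 in sNAM. In the punched ear they were 4554, 5156 and 5911 in injIM and 3834, 2548 and 2757 in injsNAM. The 6 resident and 6 interstitial libraries did not overlap. The log2 difference was -0.82 (SE 0.37, limma adjusted p = 0.309) in the unpunched and -0.77 (SE 0.28, limma adjusted p = 0.260) in the punched ear, and the ratios of means were 0.577 and 0.585. In recsNAM the counts of 4540, 5237 and 4014 overlapped those of injIM. The gene lies at chr13:74322254-74350280 on the minus strand of GRCm38, none of its 50-base stretches occurs in a transcript of another gene, and its promoter is printed above.

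The other subunits of complex II did not share one pattern. Sdhb, the iron-sulfur subunit, had 3373, 3845 and 1236 in sNAM around the IM values of 1681, 1764 and 2144. Sdhc, a membrane anchor, had 901, 1365 and 1243 in sNAM, below the IM values of 1692, 1584 and 1763, with a log2 difference of -0.50 (limma adjusted p = 0.667). Sdhd ran from 279.4 to 1782 in sNAM, across the IM values. The summed count of complex II was 7887 ± 903 (SD, n = 3) in sNAM and 9677 ± 288 in IM, and in the punched ear 8291 ± 307 in injsNAM, 10699 ± 1858 in injIM and 9958 ± 134 in recsNAM. The complex II sums of the 6 resident libraries lay below those of the 9 others, also under TMM scaling (at most 8346 against at least 9722). Under total-count scaling they overlapped, with up to 9195 in the resident libraries and 9057 or more in the others.

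Atp5md, a small membrane subunit of ATP synthase linked to dimer formation, had the opposite arrangement. Its normalized counts were 770, 574 and 493 in IM and 1146, 1383 and 1497 in sNAM. In the punched ear they were 536, 520 and 648 in injIM, 941, 1267 and 1566 in injsNAM and 737, 927 and 1083 in recsNAM. All 6 resident libraries lay above all 6 interstitial ones, and the 3 recruited libraries lay above the 3 injIM libraries. The log2 difference was 1.03 (SE 0.51, limma adjusted p = 0.362) for sNAM against IM and 1.00 (SE 0.39, limma adjusted p = 0.303) for injsNAM against injIM, with ratios of means of 2.19 and 2.21. Exons of Atp5md (chr19:47083464-47090647, minus strand) overlap those of Taf5 on the other strand, and since the strand setting of the counting is not given, reads of these genes cannot be told apart.

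Sdha and Atp5md are described because of these arrangements, so the arrangements are no test of them, and among members they were no more frequent than among all tested genes. All 6 resident libraries lay below all 6 interstitial ones for 2 of 70 members (2.86%; Sdha and Ndufa12, an accessory subunit of complex I with 26.2% shared sequence), against 2.88% of all tested genes. They lay above for 1 of 70 (1.43%; Atp5md), against 1.61%. These 3 members kept the arrangement under TMM and total-count scaling. A contrast that averages both ears was added after the values were seen and bears on the pattern by which the members were picked, so no p-value is given for them. By limma it called 0 of 70 members and 437 genes (5.05%, with 1.72% higher and 3.33% lower), with 3 members at an unadjusted p under 0.05. edgeR called 2 of the 70, Sdha and Atp5md, and DESeq2 called 5, which include both. Sdha and Atp5md were picked by the arrangement that this contrast averages. The shares of all genes beside the unadjusted, edgeR and DESeq2 counts are not given for this contrast. The counts of members are therefore no test of Sdha and Atp5md and are not read as a result.

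**Figure D5:**
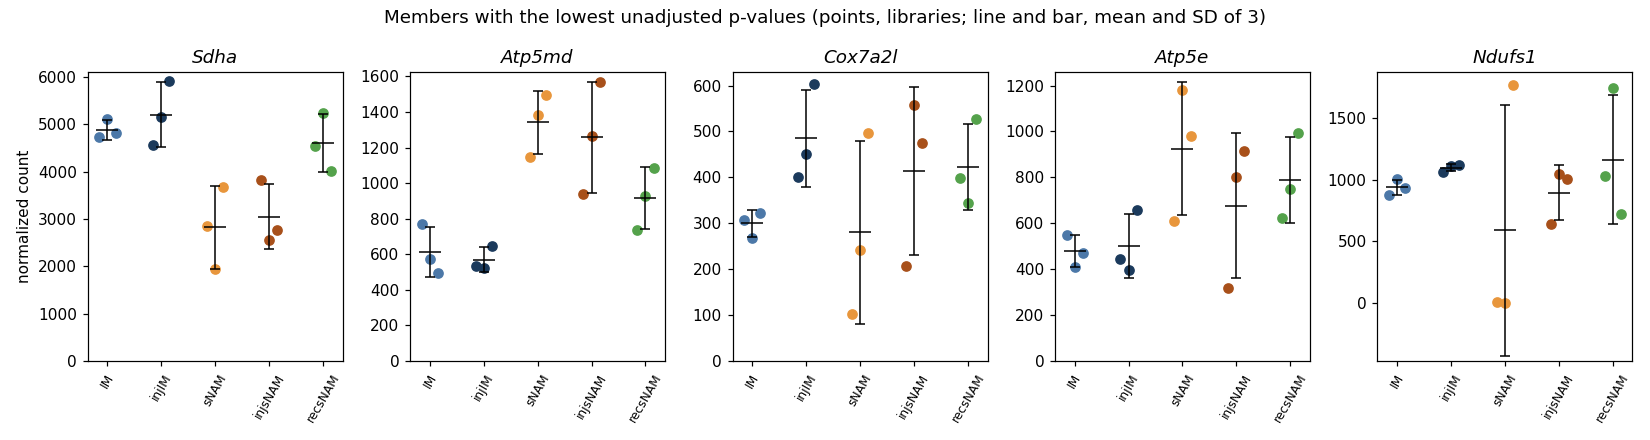
Normalized counts of Sdha, Atp5md, Cox7a2l, Atp5e and Ndufs1 in each of the 15 libraries (points), with the mean and SD of 3 (line and bar). Sdha is lower and Atp5md higher in all sNAM and injsNAM libraries than in all IM and injIM libraries, and the sNAM values of Ndufs1 lie at both ends of its scale.

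Ndufs1, the largest iron-sulfur subunit of complex I, had the largest log2 difference of all members between sNAM and IM, at -1.95 (limma adjusted p = 0.203). That value came from a pair of libraries: its normalized counts in sNAM were 2.89, 0 and 1765, against 877, 1004 and 930 in IM. In injsNAM they were 637, 1046 and 1001, and the difference of injsNAM from sNAM was 1.87 (limma adjusted p = 0.738). The sNAM libraries with almost no read for this abundant transcript are those in which 11.6% and 25.8% of tested genes had no read, against 3.89% in the third. Within complex III the evenness of the sNAM libraries differed by member. The complex median of 0.50 was the value of Uqcr10, a small accessory subunit, with 303, 408 and 296 in sNAM, all above the IM values of 233, 160 and 231. Uqcrfs1 was uneven, with 4056, 486 and 2496 in sNAM. Uqcrc2, a core subunit that shares 24.2% of its 50-base stretches, had 1447, 2061 and 1273 in sNAM, all above the IM values of 714, 704 and 838, and a log2 difference of 0.97 (limma adjusted p = 0.464). Over all members, 9 were higher and 5 lower in every sNAM library than in every IM library, against 9.57% and 18.4% of all tested genes.

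Marker sums of other cell types also differed here. The sum of 11 dendritic cell markers was 1687 to 2742 CPM in sNAM, 474 to 982 in injsNAM, 269 to 627 in IM and 105 to 262 in injIM. Of the 8 tested markers, 6 had a difference above 0 in sNAM against IM, and 2 of them, Flt3 and Ccr7, were called higher. Another 1 was lower in every sNAM library than in every IM library. The sum of 9 T and NK cell markers was 488 to 736 CPM in sNAM and 62.3 to 94.8 in IM. The sum of 7 fibroblast markers was 6.44 to 52.5 CPM in sNAM and 255 to 439 in IM, and that of 6 Schwann cell markers 855 to 1642 and 2609 to 3449. Of the 2 tested Schwann cell markers, 1 lay lower in every sNAM library than in every IM library and 1 had a log2 difference above 0. The sum of 9 mast cell markers ran from 0.161 to 2029 CPM within sNAM. Of these lists, no marker of the dendritic and mast cell lists was at 0 in all libraries of sNAM or IM, while 2 of the T and NK list were in both groups. Their part in the values of Sdha, Atp5md or any other member was not tested.

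Injury in resident cells gave no called subunit. For injsNAM against sNAM, limma called 0 of 70 members and 0% of all tested genes, 1 member (Ndufs1) had an unadjusted p under 0.05, against 6.77% of all tested genes, and edgeR called 0 and DESeq2 1. The DESeq2 count over all genes is not given for this comparison, so that call is not read as a result about the members. Only for Atp5b, 1 of 70 members, did the interval lie within 2-fold (-0.89 to 0.98 on the log2 scale). Ndufa8 was higher in every injsNAM library than in every sNAM library, and Atp5o, Ndufb7 and Uqcr10 were lower, that is 1 and 3 of 70 against 7.35% and 4.69% of all tested genes. The median was 0.02 for members and 0.14 for all tested genes. The difference between the injury responses of resident and interstitial cells, tested as an interaction, called 0 of 70 members and 0% of tested genes by limma, with 0 members and 5.13% of genes at an unadjusted p under 0.05, and edgeR and DESeq2 called 0 members. Its members' median was -0.03, beside 0.14 for all tested genes, and none of the 70 intervals lay within 2-fold.

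In the punched ear, injsNAM against injIM also gave 0 of 70 members by limma, against 0.485% of all tested genes. The members at an unadjusted p under 0.05 were Sdha and Atp5md, 2 of 70 against 11.7% of tested genes. edgeR called 0 and DESeq2 called these 2. The DESeq2 count over all genes is not given here either, so these calls are not read as a result about the members. The 95% interval lay within 2-fold for 20 of 70 members, and the median was -0.07 beside -0.09. Besides Sdha, the members lower in every injsNAM library were Atp5o, Ndufa12 and Ndufs1, and Atp5md was the only one of the 70 higher in every library, against 12% and 8.92% of tested genes. Exons of Atp5o overlap those of Donson on the same strand and share 45.6% of their 50-base stretches with other genes, so its values are uncertain.

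Recruited nerve-associated macrophages also gave no called subunit against injIM. No member was called by limma (0 of 70, against 7.53% of all tested genes), and edgeR and DESeq2 called 0. The interval lay within 2-fold for 68 of 70 members, against 78.1% of tested genes, and for 44 with 1 pooled spread; in the weighted fit the exceptions were Atp5e and Atp5md, whose upper bounds were 1.05 and 1.02 on the log2 scale. The median was 0.06 for members and -0.02 for all tested genes, with 0.02, -0.10, 0.10, 0.09 and 0.12 for complexes I to V. Atp5e and Atp5md were also the members at an unadjusted p under 0.05, against 19.3% of tested genes: Atp5md had a log2 difference of 0.60 (SE 0.20, limma adjusted p = 0.0825) and Atp5e, the epsilon subunit in the central stalk, 0.57 (SE 0.23, limma adjusted p = 0.161). Atp5e had 444, 397 and 660 in injIM and 624, 747 and 995 in recsNAM, so the groups overlapped by 1 library, injIM replicate 3. Every recsNAM library lay above every injIM library for 2 of 70 members (Atp5md and Ndufs4, an iron-sulfur-linked subunit of complex I) and below for 0, against 11.4% and 12.5% of tested genes. Without injIM replicate 3 both Atp5e and Atp5md passed, at 0.75 (limma adjusted p = 0.0286) and at 0.68 (limma adjusted p = 0.0347), and the members' median was 0.22. No other fit that leaves out 1 library called a member. Atp5e and Atp5md each passed in 2 of 24 alternative settings. The other was limma with replicate number as a block (adjusted p = 0.0476 for Atp5e and 0.0296 for Atp5md). The labels do not tie replicate numbers to mice. Sdha, Sdhb, Cox4i1 and Atp5b had differences of -0.18, -0.02, 0.07 and -0.21.

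Some genes around the chain passed the limma test between recsNAM and injIM. Of 32 assembly factors, 2 rose and 0 fell, beside 3.19% and 4.34% of all tested genes: Cox17, a copper chaperone of complex IV, by 0.79 (limma adjusted p = 0.0285) and Ttc19, a complex III factor, by 0.70 (limma adjusted p = 0.0487). Of 10 regulators, 0 rose and 2 fell: Pprc1, a coactivator related to Ppargc1a, fell by 1.04 and Myc fell by 1.02 on the log2 scale (limma adjusted p = 0.0455 and 0.0224). Of 15 glycolysis genes, Slc16a3 rose by 1.33 and Hk1, a hexokinase, fell by 0.60 on the log2 scale (limma adjusted p = 0.00478 and 0.0258). These 6 calls were limma's alone as well: edgeR, DESeq2, limma with 1 pooled spread and limma without a filter called 0 of the 6, and none of the 6 passed each time when each library was left out in turn. Marker sums moved with the groups here too: the dendritic cell sum was 358 to 537 CPM in recsNAM against 105 to 262 in injIM, the T and NK cell sum 367 to 496 against 175 to 234, the fibroblast sum 44.3 to 263 against 276 to 1048 and the Schwann cell sum 902 to 1204 against 2275 to 2957. Of the 2 tested Schwann cell markers, 1 was called lower by limma and 1 lay higher in every recsNAM library than in every injIM library. The part of all these cell types in the values above was not tested. None of 16 citric acid cycle genes, 69 mitochondrial ribosomal protein genes and 4 chain genes outside the name rule was called, and 2, 3 and 0 had an unadjusted p under 0.05. Against injsNAM, recsNAM gave 0 of 70 members and 0% of tested genes by limma, with 0 members and 7.15% of genes at an unadjusted p under 0.05, and edgeR and DESeq2 called 0 members. There, 17 of 70 intervals lay within 2-fold, and Atp5o, Ndufa12, Ndufa2 and Sdha were higher in every recsNAM library than in every injsNAM library and 0 members lower, against 7.29% and 6.4% of tested genes (Sdha: log2 difference 0.59, limma adjusted p = 0.723).

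Across the 5 groups, the summed count of all tested members was 94539 ± 5596 (SD, n = 3) in IM and 98066 ± 16045 in sNAM of the unpunched ear, and 101147 ± 24020 in injIM, 97014 ± 23902 in injsNAM and 100017 ± 12113 in recsNAM of the punched ear. The order of these means lies within the spread of the libraries. Complex I ran from 23936 ± 1322 in IM to 27637 ± 2535 in recsNAM, complex IV from 21852 ± 2165 in IM to 23169 ± 5601 in sNAM, and complex V from 33341 ± 1525 in IM to 34593 ± 7865 in injIM. Complex III had 5734 ± 409 in IM and 8597 ± 1981 in sNAM, where every sNAM library (9901, 6317 and 9571) lay above every IM library. Within these 3 sNAM sums, Uqcrfs1 held 4056, 486 and 2496 and Uqcrh 2125, 495 and 1275, so the parts were uneven. The sum of the 73 cytosolic ribosomal protein genes was also higher in sNAM (118790 ± 21763) than in IM (89117 ± 12832). The difference in the complex III sum was not tested. The subunits encoded in mitochondrial DNA are not analysed here.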

How the data were processed

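RNA-seq of 15 libraries of sorted ear skin macrophages was used. Per the labels' protocols, cDNA was made from 250 pg of RNA with 13 PCR cycles and libraries with Nextera XT. The submitters' processing notes name STAR 2.7.2b with mm10, DESeq2 1.24.0 in R 3.6.1, cutadapt and bcl2fastq 2.18. Read counter, annotation and strand: not given in the sources used here. Normalized counts are the deposited signal, that is, counts scaled by the authors with a single factor for each library. Dividing by a library's smallest value gave whole reads (within 0.01) for 100% of values above 0. Reads are PCR-amplified and carry no molecular identifiers.

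Tests used limma 3.58.1 (R 4.3.3; trend, robust moderation) on log2(value + 100) for the 8656 genes with a mean of 100 or more, with 1 mean per group and group-wise array weights (0.175 for sNAM, 0.311 for injsNAM, 1.67 for recsNAM, 3.21 for injIM, 3.43 for IM). P-values were adjusted by Benjamini-Hochberg over all tested genes in each of 7 comparisons, and a gene was called under 0.05. Comparisons that share a group share its libraries. This scale understates changes of low genes. The fit was also run on simulated counts, with noise drawn separately for each gene and so without the shifts shared between genes described above. No result here rests on that run. Alternatives were pseudocounts of 10 and 500, no filter, 1 pooled spread, TMM and total-count scaling, edgeR 4.0.16 and DESeq2 1.42.0 on recovered reads, a replicate block and leaving out each library. The members and lists, and the weights, pseudocount and filter, were chosen with earlier results of these data known. Named members were core and catalytic subunits, isoforms, extremes of level or difference, and any called; members with an unadjusted p under 0.05 or groups that do not overlap were chosen after their values were seen. Exon lengths, overlaps and shared 50-base stretches came from GENCODE on GRCm38, promoters from RefSeq on GRCm38.p6. The length classes were added after the values were seen. 1 member is counted in all tests and sums but is not reported here by itself or drawn.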

Additional observations from a re-analysis of the deposited data

Results flagged for a closer look

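A row outside the name rule carried reads in every library: Ndufb1-ps, left out of the members for its suffix alone, had a lowest normalized count of 492. It passed the filter and was among all tested genes. Whether this row is a pseudogene or encodes a complex I subunit was not checked. Ndufb1-ps is given here because it holds signal in a row that the counts of members and the complex sums do not use. Its group means lie around the median member's 944.4. Its means were 713.6 ± 214.9 (SD, n = 3) in IM and 1383 ± 81.44 in sNAM, and in the punched ear 776.8 ± 62.35 in injIM, 965.4 ± 561.3 in injsNAM and 1117 ± 171.2 in recsNAM. The sNAM libraries (1307 to 1469) lay above the IM libraries (561 to 959.4). The test of Ndufb1-ps as one of all tested genes is not given here.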

How the results depend on the processing

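Of 168 planned recounts of called members, 160 gave 0, and 15 differences of members named with a test kept their sign in 360 recomputed values, 12 of which passed the threshold. For injIM against IM, total-count scaling called 1 member and the replicate block 1, Cox7a2l in both (adjusted p = 0.0473 and 0.0431). For sNAM against IM, 1 pooled spread called 1 member (Sdha) and DESeq2 called 4 (Uqcrc2 and Atp5md higher, Sdha and Cox7a1 lower; Cox7a1 is below the filter). DESeq2 called 1 member for injsNAM against sNAM (Atp5o, lower) and 2 for injsNAM against injIM (Sdha, Atp5md). Its counts over all genes in these 2 comparisons are not given. For recsNAM against injIM, the replicate block called 2 (Atp5e and Atp5md, adjusted p = 0.0476 and 0.0296), and leaving out 1 library gave 0 to 2, with 2 only without injIM replicate 3. Replicate numbers were not established as pairs: 9 of 30 same-numbered pairs of libraries had a correlation of deviations above 0.1 (range -0.021 to 0.388), although 12 of 15 libraries correlated best with one of their own number, a hint from the data and not from the design. Counts over all genes depended more on the choices: for injIM against IM, 708 genes became 315 without a filter, 18 with pooled spread, 3 by edgeR and 73 by DESeq2. For sNAM against IM, 91 became 727 with pooled spread, 367 by edgeR, 1945 by DESeq2, 152 with a pseudocount of 500 and 0 with one of 10. For recsNAM against injIM, 652 became 22 with pooled spread, 10 by edgeR, 233 by DESeq2, 362 without a filter and 1211 with the replicate block. Intervals depend on the group weights: with pooled spread, 32 of 70 members in place of 1 lay within 2-fold for injsNAM against sNAM, 33 in place of 20 for injsNAM against injIM, 35 in place of 17 for recsNAM against injsNAM and 8 in place of 0 for the interaction. Depth and uneven libraries limit the resident groups: in the weighted fit, intervals there exceed 2-fold for most members.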
